A study of Mus musculus with 6 samples.

Results

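The genes described here are 41 genes of the G1/S transition and of DNA replication, taken by name from the 40202 genes of the deposited expression table. They fall by role into 5 origin licensing genes, 10 genes of the replicative helicase, 14 genes of the polymerases, sliding clamp, clamp loader and strand processing, 4 genes of nucleotide supply and 8 genes of G1/S control and S-phase chromatin. Their RNA was measured by total RNA sequencing in BV2, a line of immortalised microglia with a C57BL/6 mouse background, with no other genetic change named. The control group held 3 untreated samples. The treated group held 3 samples incubated for 5 h with 25 µg/ml of human FL-ApoE4, the full-length form of apolipoprotein E4, which carries lipids. Neither a vehicle for the controls nor separate cultures for the replicates are named in the labels, so each p-value here refers to the scatter among the 6 samples, and that scatter may be technical. BV2 is 1 transformed line in culture, which limits it as a model of resting microglia.

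Before S phase, the origin recognition complex, Cdc6 and Cdt1 load the Mcm2 to Mcm7 ring onto origins, and geminin, the product of Gmnn, blocks Cdt1 so that origins are not licensed again. Cyclin-dependent kinases then help to recruit Cdc45 and the GINS complex to the ring, which becomes the active helicase, and DNA polymerases copy the strands with the help of the clamp PCNA. Many of these genes are transcribed by E2F factors, which are released when D- and E-type cyclins with their kinases inactivate the retinoblastoma protein. Cells that keep dividing in culture, as microglial lines do, express the whole set.

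The promoters were read first for what the genes share in sequence. RefSeq windows of build GRCm38.p6, from 250 bases before to 50 bases after a gene's start, were given for 33 of the 41 genes. They were searched on both strands for 4 forms of the E2F site, TTTGGCGC, TTTCGCGC, TTTCCCGC and TTTGCCGC. At least 1 form was found in 14 of the 33 genes (42.4%), against 2.6% of the 27025 genes with a window. Some matches overlapped each other, and 8 of the 20 matches lay after the start. The CCAAT box was found in 22 of the 33 genes (66.7%, against 41.1% of all genes) and the CHR element TTTGAA of mitotic promoters in 4 (12.1%, against 20.2%). Among 21 windowed genes of G2/M and mitosis the same search gave E2F forms in 1, the CCAAT box in 17 and the CHR element in 16. The 200 bases before the start are shown 5′ to 3′ on the gene's strand for 5 genes with an E2F form there, in capitals, and for Cdc45, Mcm2 and Mcm10, helicase genes that have a window with no form in it.
Mcm5 (chr8:75109309-75109508, plus strand): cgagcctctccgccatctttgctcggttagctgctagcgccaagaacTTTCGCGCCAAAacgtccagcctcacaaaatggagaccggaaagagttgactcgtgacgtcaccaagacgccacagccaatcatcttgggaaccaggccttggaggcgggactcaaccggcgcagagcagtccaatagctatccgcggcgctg
Mcm6 (chr1:128359706-128359905, minus strand): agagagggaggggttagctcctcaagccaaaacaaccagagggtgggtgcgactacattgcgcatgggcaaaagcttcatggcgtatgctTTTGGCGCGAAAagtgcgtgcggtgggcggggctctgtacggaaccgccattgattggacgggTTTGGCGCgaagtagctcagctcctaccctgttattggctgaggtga
Mcm7 (chr5:138171884-138172083, minus strand): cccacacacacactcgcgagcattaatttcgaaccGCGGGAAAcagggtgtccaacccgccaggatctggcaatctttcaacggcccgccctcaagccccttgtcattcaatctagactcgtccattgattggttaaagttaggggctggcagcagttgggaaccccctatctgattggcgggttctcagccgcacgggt
Pola1 (chrX:93632156-93632355, minus strand): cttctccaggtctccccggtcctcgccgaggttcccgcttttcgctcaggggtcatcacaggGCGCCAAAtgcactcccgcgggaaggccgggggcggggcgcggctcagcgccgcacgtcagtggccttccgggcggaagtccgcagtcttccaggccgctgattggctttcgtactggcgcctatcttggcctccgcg
Orc1 (chr4:108579254-108579453, plus strand): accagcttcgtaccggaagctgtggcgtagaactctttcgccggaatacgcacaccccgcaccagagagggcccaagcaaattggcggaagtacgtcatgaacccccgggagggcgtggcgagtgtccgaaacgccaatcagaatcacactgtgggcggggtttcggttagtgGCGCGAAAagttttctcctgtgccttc
Cdc45 (chr16:18811973-18812172, minus strand): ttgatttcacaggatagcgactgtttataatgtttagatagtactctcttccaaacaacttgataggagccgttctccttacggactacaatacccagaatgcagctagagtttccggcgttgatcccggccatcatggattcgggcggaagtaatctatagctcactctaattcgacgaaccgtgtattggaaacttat
Mcm2 (chr6:88898781-88898980, minus strand): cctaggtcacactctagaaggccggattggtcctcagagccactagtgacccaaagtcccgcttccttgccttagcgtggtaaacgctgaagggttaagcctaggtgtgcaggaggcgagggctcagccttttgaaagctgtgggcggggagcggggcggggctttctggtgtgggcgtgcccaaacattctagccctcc
Mcm10 (chr2:5012792-5012991, minus strand): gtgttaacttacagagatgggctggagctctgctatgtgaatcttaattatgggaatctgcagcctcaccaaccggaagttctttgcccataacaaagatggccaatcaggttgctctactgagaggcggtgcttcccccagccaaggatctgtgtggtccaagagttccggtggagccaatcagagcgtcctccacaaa
A match describes letters and not binding. In Mcm5 and Mcm6 the run of 12 capitals holds 2 overlapping matches, 1 on each strand.

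Libraries held 45700128 to 54965393 reads assigned to genes. Within each group, replicates 2 and 3 were alike and replicate 1 stood apart. The chi-square per gene between libraries was 64.1 and 71.9 for control replicate 1 against control replicates 2 and 3, 21.4 and 19.9 for FL-ApoE4 replicate 1 against its group, and 4.85 and 4.39 for the remaining pairs. Microglial and macrophage identity was checked with 10 markers, of which 9 reached 10 normalised reads in a library and P2ry12, a marker of resting microglia, was listed at 0. That entry does not show that P2ry12 RNA was absent, because B2m, which cells commonly express, was listed at 0 too. The summed level of the 10 markers was 162886 to 172212 normalised reads in controls and 182762 to 188485 with FL-ApoE4, without overlap. The part of this difference in the results was not tested. Sums of endothelial (3002 to 4765 and 4017 to 4534), oligodendrocyte (1151 to 1242 and 1211 to 1295), astrocyte and neuronal markers overlapped between the groups. Fibroblast markers summed to at most 8.69 and lymphocyte markers to at most 18.6 normalised reads in any library.

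Of the 41 genes, 40 were measured well above the minimum mean of 10 normalised reads, with control means from 542 (Orc1) to 31450 (Mcm6). Cdk2, the kinase partner of cyclin E, has an entry of 0 in every library. So does B2m, which cells commonly express, and the entry therefore says nothing about the gene. Most of the 40 genes lay slightly lower with FL-ApoE4, but the groups overlapped in their library medians. The median over the 40 genes of the log2 deviation from each gene's mean was -0.026, 0.064 and 0.106 in control replicates 1 to 3. In FL-ApoE4 replicates 1 to 3 it was -0.003, -0.069 and -0.042, so control replicate 1 lay below FL-ApoE4 replicate 1. The 40 genes share these libraries and are not replicates. The log2 difference (FL-ApoE4 minus control, on log2 of normalised reads + 1) was below 0 in 35 of the 40, against 49.7% of all 14079 genes tested, with a median of -0.08 against 0.00 for all genes. It was below 0 in all 10 helicase genes, all 14 polymerase and clamp genes and all 4 nucleotide supply genes, in 3 of 5 licensing genes and in 4 of 7 measured G1/S control genes. The 5 genes above 0 were Cdc6, Gmnn, Ccnd1, E2f1 and E2f2. In these bulk samples, fewer cells in S phase and less RNA per cell cannot be told apart.

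None of the 40 genes passed the main test, limma with all 6 libraries weighted equally. By this test 0 of 40 reached an adjusted p under 0.05, where the share of all genes was 0% in each direction. At an unadjusted p under 0.05 there were 6 lower and 1 higher gene, against 6.33% and 6.81% of all genes. The edgeR quasi-likelihood test on the recovered reads also called 0 (0% of all genes in each direction). DESeq2 called Cdc45 lower and Ccnd1 higher (1.37% and 1.4% of all genes). For 12 genes every FL-ApoE4 library was below every control, and for Ccnd1 every one was above, against 10.9% and 11.1% of all genes. The sizes were small. The 95% interval of the difference lay within a 1.5-fold change either way for 39 genes, all but Ccnd1, and within a 1.2-fold change for 28.

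**Figure D1:**
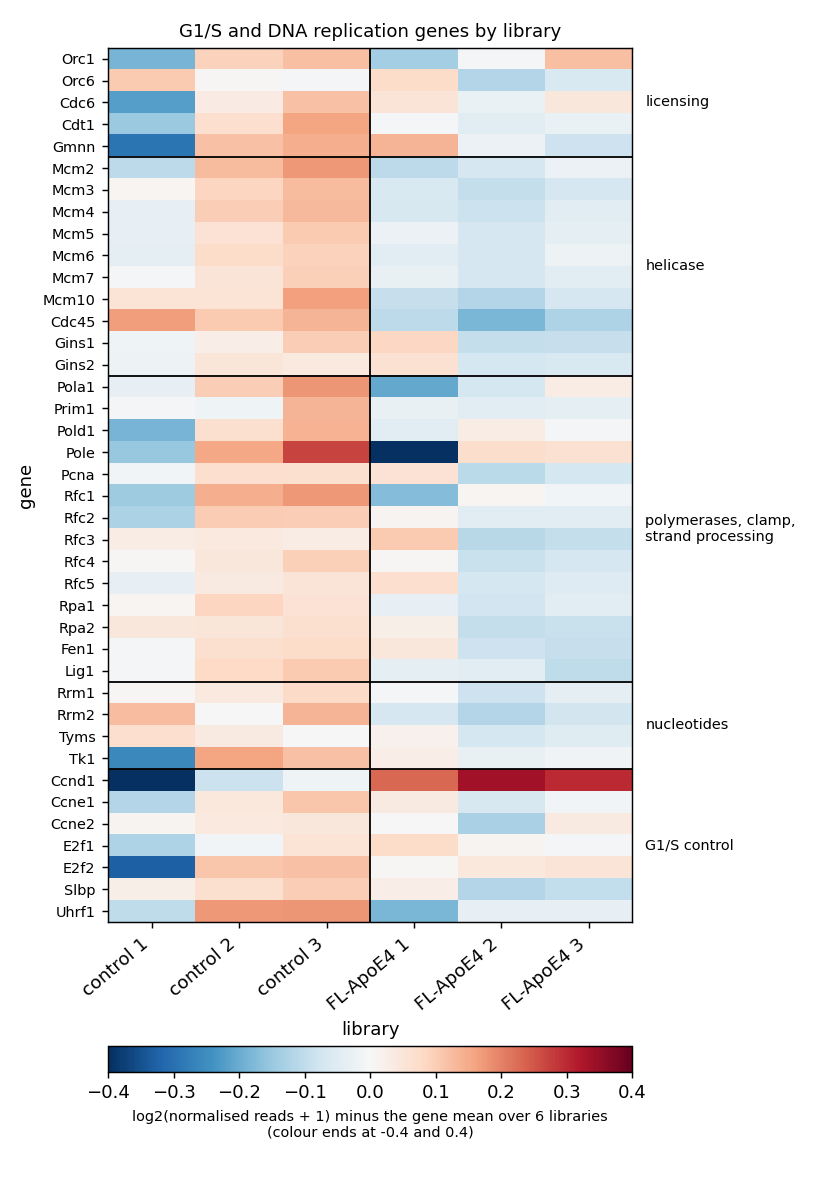
Each row is 1 of the 40 measured genes and each column 1 library. Colour gives log2(normalised reads + 1) minus the gene's mean over the 6 libraries, from blue (lower) to red (higher), with black lines between roles and groups. Control replicates 2 and 3 are red in most rows and control replicate 1 is paler or blue, as in Gmnn, Tk1 and E2f2. Ccnd1 runs the opposite way, with its highest values in the 3 FL-ApoE4 libraries.

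How many genes passed depended on the libraries kept and on their weights. Of the equally weighted limma fits that leave out 1 library, only that without control replicate 1 called any of the 40 genes. Control replicate 1 was below both other controls in 35 of the 40 genes, against 42.5% of all genes. Its median difference from the mean of the other controls was -0.10 (log2), against 0.00 over all genes. Control replicates 2 and 3 differed from each other by a median of 0.04 (absolute log2). Without control replicate 1, limma called 3 genes lower, Cdc45, Mcm2 and Uhrf1, and Ccnd1 higher, against 1.69% and 2.93% of all genes. The groups then did not overlap for 29 of 40 genes on the lower side, against 19.7% of all genes, and the median difference was -0.12. Of the 40 genes, 38 were then below 0, against 49.8% of all genes. EdgeR without that library called the same 4 genes (1.9% of all genes lower and 3.01% higher), and DESeq2 called 7 lower, adding Mcm3, Mcm4, Mcm10 and Rfc1, and Ccnd1 higher (2.95% and 3.86%). With all 6 libraries but weights for library quality, limma called 15 lower (8 of the helicase, 5 of the polymerase and clamp group and 2 of G1/S control) and 1 higher, against 4.72% and 6.29% of all genes. All other limma results are with equal weights. The fit without the library rests on 2 alike controls, so the spread between controls may be understated and its p-values too small. Leaving out replicate 1 of both groups gave 26 lower and 1 higher gene, against 5.53% and 7.02% of all genes, with a median of -0.15. That fit was chosen after seeing the data and rests on 2 alike libraries in each group, so its p-values may be too small as well.

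**Figure D2:**
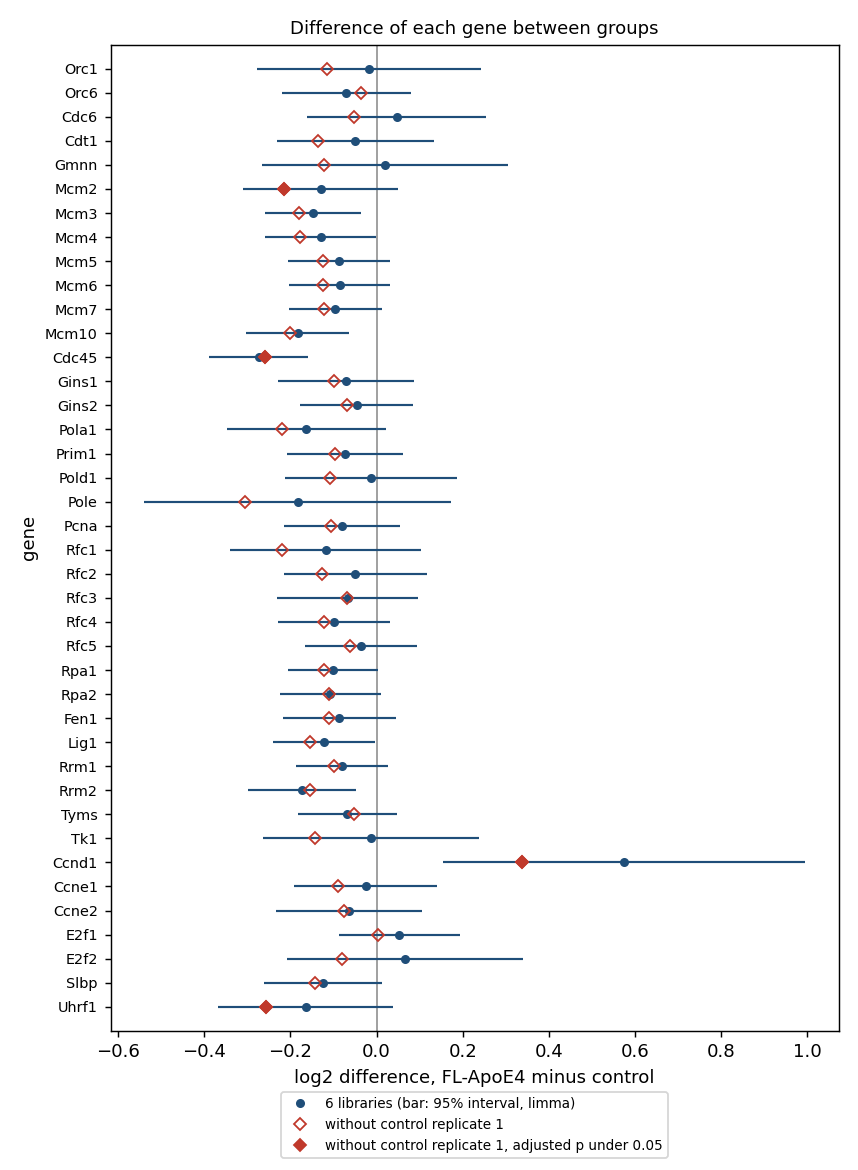
Filled circles give the log2 difference between FL-ApoE4 and control for each measured gene over 6 libraries, with bars for the 95% interval from limma, and diamonds give it without control replicate 1, filled where the adjusted p was under 0.05. All circles but that of Ccnd1 lie between -0.27 and 0.07. Ccnd1 is at 0.57 with all libraries and 0.34 without control replicate 1.

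The licensing genes did not separate the groups. Orc6, a subunit of the origin recognition complex, was at 6141, 5738 and 5696 normalised reads in control replicates 1 to 3 and at 6013, 5267 and 5482 in FL-ApoE4 replicates 1 to 3. Orc1, the largest subunit, was at 471, 572 and 582 in controls and at 487, 533 and 582 with FL-ApoE4. In both genes the groups overlapped, with log2 differences of -0.07 ± 0.06 (SE) and -0.02 ± 0.11. Cdc6, the loader that bridges the complex and the ring, was at 2502, 2978 and 3160 normalised reads in controls and at 3017, 2860 and 3006 with FL-ApoE4. Cdt1, which brings the ring to the origin, was at 10334, 11996 and 12767 and at 11423, 11098 and 11257. Its inhibitor Gmnn was at 2603, 3454 and 3525 and at 3499, 3135 and 3007. In Cdc6, Cdt1 and Gmnn control replicate 1 was the lowest of all 6 libraries, and the FL-ApoE4 libraries lay within the range of the controls. Their differences were 0.05 ± 0.09, -0.05 ± 0.08 and 0.02 ± 0.12. Without control replicate 1 these became -0.05, -0.14 and -0.12, with limma adjusted p of 0.675, 0.163 and 0.395, so that the signs of Cdc6 and Gmnn turned. The ratio of Cdt1 to Gmnn group means, taken without regard to length, was 3.66 in controls and 3.50 with FL-ApoE4. Its spread between libraries was not taken, and the difference in ratio was not tested.

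All 10 helicase genes were below 0, with a median of -0.11. The groups did not overlap for 5 of them, all lower, against 10.9% of all genes on the lower side. Cdc45, which joins the ring to make the active helicase, was at 5011, 4797 and 4905 normalised reads in controls and at 4151, 3928 and 4092 with FL-ApoE4. Every FL-ApoE4 library was below every control, and here control replicate 1 did not stand apart. The FL-ApoE4 mean was 0.827 times the control mean, a log2 difference of -0.27 ± 0.05 (95% interval -0.39 to -0.16). Its limma adjusted p was 0.112 with 6 libraries, the lowest of the 40 genes, and 0.113 by edgeR. Without control replicate 1 it fell by 0.26 (limma adjusted p = 0.0256). The authors' deposited table gives Cdc45 a log2 fold change of -0.27 with an adjusted p of 0.00182, and it was the only 1 of the 40 genes with an adjusted p under 0.05 there, against 1.33% of all genes on the lower side.

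Mcm10, an initiation factor that binds the helicase, was at 5860, 5862 and 6321 normalised reads in controls and at 5295, 5198 and 5390 with FL-ApoE4. The groups did not overlap, with a difference of -0.18 ± 0.05 (the limma adjusted p was 0.217, and 0.0713 without control replicate 1). The 6 ring subunits Mcm2 to Mcm7 all lay lower, by -0.15 to -0.09 on the log2 scale. Mcm2 was at 12752, 14988 and 15486 in controls and at 12773, 13091 and 13512 with FL-ApoE4. The control and FL-ApoE4 libraries overlapped only through control replicate 1. The difference was -0.13 ± 0.08 (limma adjusted p = 0.526), and without that library Mcm2 fell by 0.22 (adjusted p = 0.0400). Mcm3 was at 21737, 22961 and 23598 and at 20712, 20252 and 20647, and Mcm4 at 9586, 10503 and 10718 and at 9375, 9240 and 9512. Both were lower in every FL-ApoE4 library, by -0.15 ± 0.05 and -0.13 ± 0.06, and neither passed limma with 6 libraries (adjusted p = 0.259 and 0.377) or without control replicate 1 (0.0558 and 0.0631). Mcm7 did not overlap either, at -0.10 ± 0.05, whereas Mcm5 and Mcm6 overlapped, each at -0.09 ± 0.05. The GINS subunit genes Gins1 and Gins2 overlapped between groups, at -0.07 ± 0.07 and -0.05 ± 0.06.

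The ring holds its subunits in equal number in the cell, but their RNA levels were not equal. Per kilobase of transcript, the control level was 10808 ± 504 normalised reads for Mcm6 (mean ± SD, n = 3), 8822 ± 423 for Mcm5, 7511 ± 312 for Mcm3, 4736 ± 166 for Mcm7, 4274 ± 432 for Mcm2 and 2861 ± 167 for Mcm4. The highest was 3.78 times the lowest. The ranges of mean ± SD overlapped for Mcm7 and Mcm2, and for no other neighbours in this order. These levels depend on the transcript whose length was used. With FL-ApoE4 the mean levels per kilobase were 10177, 8300, 6776, 4431, 3894 and 2612, in the same order.

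**Figure D3:**
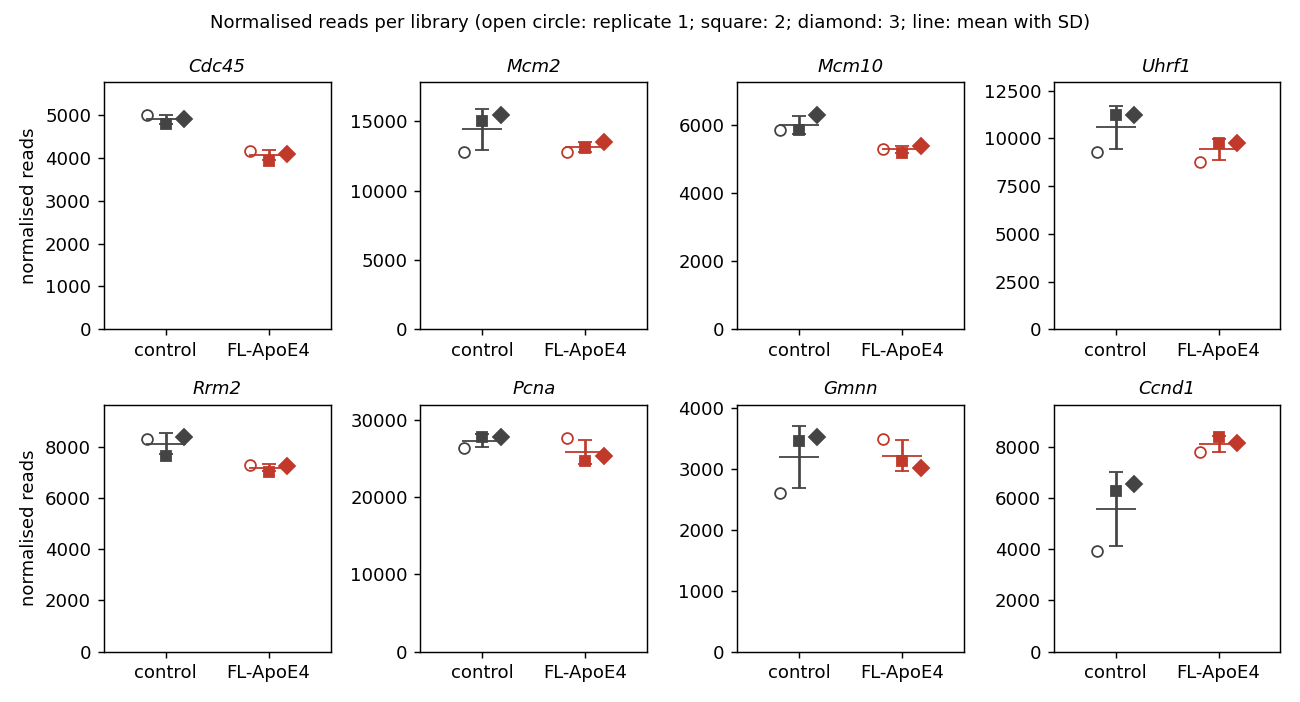
Normalised reads are plotted for 8 genes in each of the 6 libraries, on axes from 0, with replicate 1 as an open circle and lines for the mean and SD of each group (n = 3). In Cdc45, Mcm10 and Rrm2 every FL-ApoE4 library is below every control. In Gmnn and Ccnd1 the open circle of the control group lies far below its other 2 libraries.

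The polymerase, clamp and strand processing genes lay lower in all 14 cases, with differences of -0.18 to -0.01 and a median of -0.09. Lig1, the ligase that seals Okazaki fragments, was at 6954, 7380 and 7508 normalised reads in controls and at 6800, 6765 and 6503 with FL-ApoE4. The single-strand binding proteins showed the same order: Rpa1 was at 16250, 17142 and 16841 and at 15810, 15319 and 15691, and Rpa2 at 8279, 8298 and 8389 and at 8145, 7504 and 7544. None of these 3 genes overlapped between groups. Their log2 differences were -0.12 ± 0.05, -0.10 ± 0.04 and -0.11 ± 0.05, and the limma adjusted p was 0.364, 0.391 and 0.424. Prim1, the primase catalytic subunit, and the clamp loader gene Rfc4 likewise did not overlap, at -0.07 ± 0.06 and -0.10 ± 0.06.

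Pcna, which encodes the sliding clamp, was at 26328, 27774 and 27771 normalised reads in controls and at 27631, 24634 and 25263 with FL-ApoE4. FL-ApoE4 replicate 1 lay within the controls and the other 2 lay below them, with a difference of -0.08 ± 0.06. Per kilobase Pcna was the most abundant of the 40 genes, at 17978 ± 549 in controls (SD, n = 3). Pola1, the catalytic subunit of the primase polymerase, was at 6329, 6935 and 7313 in controls and at 5609, 6168 and 6611 with FL-ApoE4, which overlapped (-0.16 ± 0.08). Pole, the leading strand polymerase, had the widest interval on the lower side. It was at 4489, 5551 and 6008 and at 3765, 5228 and 5193, a difference of -0.18 ± 0.15. Replicate 1 was the lowest library in each group for Pole and Pola1. Clamp loader genes Rfc1, Rfc2, Rfc3 and Rfc5, the polymerase gene Pold1 and the flap nuclease gene Fen1 overlapped as well, between -0.12 and -0.01. No gene of this role passed equally weighted limma with 6 libraries or without control replicate 1, where the smallest adjusted p was 0.0935, for Rfc1. With library weights 5 were called lower, against 4.72% of all genes.

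Of the nucleotide supply genes, both subunits of ribonucleotide reductase, which makes deoxyribonucleotides, were lower in every FL-ApoE4 library. Rrm2, the subunit whose level follows S phase, was at 8325, 7648 and 8394 normalised reads in controls and at 7290, 7039 and 7268 with FL-ApoE4, and Rrm1 at 26080, 26756 and 27462 and at 25952, 24592 and 25382. The differences were -0.17 ± 0.05 and -0.08 ± 0.05, and limma adjusted p was 0.242 and 0.509, or 0.163 and 0.295 without control replicate 1. Tyms, the thymidylate synthase, was at 5278, 5172 and 5035 and at 5101, 4799 and 4878, which overlapped. Tk1, the thymidine salvage kinase, was at 3193, 4258 and 4135 in controls and at 3885, 3733 and 3774 with FL-ApoE4. Here control replicate 1 was the lowest of all libraries and the FL-ApoE4 libraries lay between it and the other controls, so that the difference was -0.01 ± 0.11 with all libraries and -0.14 without that library (limma adjusted p = 0.154).

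Among the regulators, Ccnd1 went the other way. This gene, which encodes cyclin D1, the cyclin through which growth signals act in G1, was at 3922, 6264 and 6560 normalised reads in controls and at 7783, 8388 and 8160 with FL-ApoE4. Every FL-ApoE4 library was above every control, and control replicate 1 was far below all other libraries. The FL-ApoE4 mean was 1.45 times the control mean, a log2 difference of 0.57 ± 0.18 (95% interval 0.15 to 1.00, limma adjusted p = 0.247). Without control replicate 1 it rose by 0.34 (limma adjusted p = 0.00961), a smaller difference with a smaller p. DESeq2 gave an adjusted p of 0.0492 with 6 libraries and 0.0503 stands in the authors' deposited table.

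No regulator passed equally weighted limma with all 6 libraries. Ccne1, which encodes cyclin E1, was at 2851, 3183 and 3341 normalised reads in controls and at 3167, 2956 and 3071 with FL-ApoE4, and E2f1, an activating E2F factor, at 5092, 5510 and 5770 and at 5841, 5590 and 5535. Both overlapped, at -0.03 ± 0.07 and 0.05 ± 0.06. Ccne2 and E2f2 overlapped too, at -0.06 ± 0.07 and 0.07 ± 0.12. The 95% intervals were -0.19 to 0.14 for Ccne1 and -0.09 to 0.19 for E2f1. Uhrf1, which guides maintenance methylation to newly copied DNA, was at 9279, 11229 and 11243 in controls and at 8777, 9733 and 9732 with FL-ApoE4. Control replicate 1 lay among the FL-ApoE4 libraries. The difference was -0.16 ± 0.09 (limma adjusted p = 0.470), and without control replicate 1 Uhrf1 fell by 0.26 (adjusted p = 0.0424). Slbp, which binds the stem-loop of replication-dependent histone mRNA, was at 3014, 3100 and 3173 and at 3017, 2735 and 2769, with an overlap of control replicate 1 and FL-ApoE4 replicate 1 and a difference of -0.12 ± 0.06 (adjusted p = 0.424).

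Differences among the FL-ApoE4 libraries followed transcript length. FL-ApoE4 replicate 1, set against the mean of replicates 2 and 3, was higher in short transcripts such as Gmnn (0.19 on the log2 scale) and Orc6 (0.16) and lower in long ones such as Pole (-0.47), Pola1 (-0.19) and Rfc1 (-0.17). Across the 40 genes, which share these libraries, Spearman's correlation of that difference with length was -0.67, and across the 13124 genes with a known length it was -0.47. FL-ApoE4 replicates 2 and 3 differed from each other with a correlation of -0.02 over the 40 genes. The controls showed a weaker trend of the same sign. Control replicate 1, set against control replicates 2 and 3, had a correlation with length of -0.27 over the 40 genes. Over the 13124 genes it was -0.17. With GC content the correlation over the 40 genes was -0.45. After each library's trend with length and GC content was removed, the median difference between groups remained at -0.08. Limma then called 0 of the 40 genes (0% of all genes in each direction), with an adjusted p of 0.0555 for Cdc45, and 12 lower genes had an unadjusted p under 0.05 in place of 6. The share of all genes was 7.36% in place of 6.33%. The same correction without control replicate 1 called 15 genes lower and Ccnd1 higher, against 3.71% and 5.21% of all genes.

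**Figure D4:**
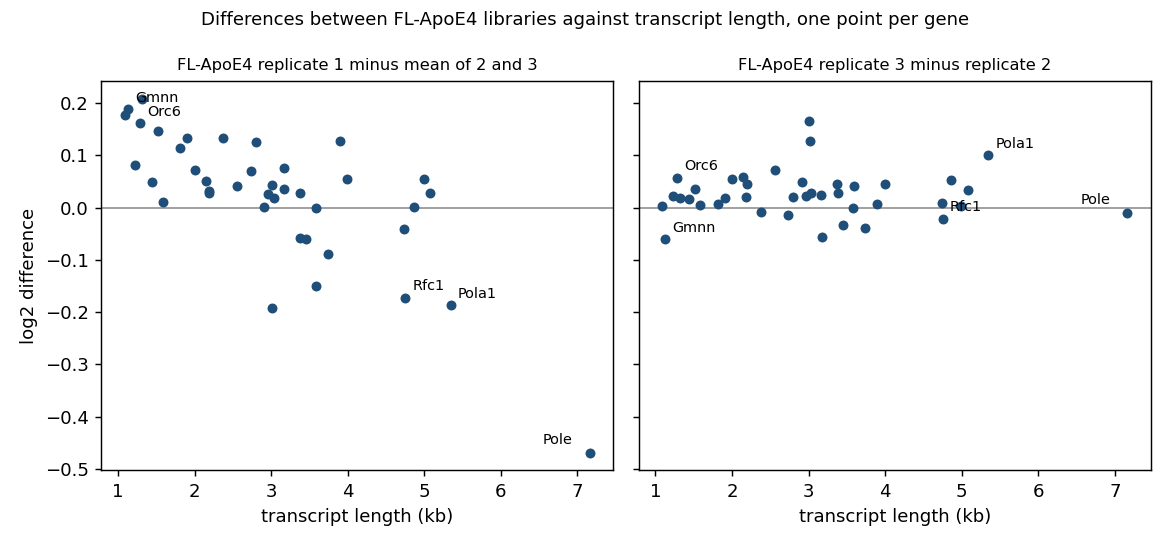
Each point is 1 of the 40 measured genes, with transcript length in kb on the horizontal axis and the log2 difference between FL-ApoE4 libraries on the vertical axis. On the left, replicate 1 against the mean of replicates 2 and 3 slopes from Gmnn at 0.19 to Pole at -0.47. On the right, replicate 3 against replicate 2 shows no such slope.

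Most other genes of the pathway were below 0 as well. Of 70 further licensing, fork, polymerase, nucleotide and G1/S genes, 68 could be tested, with a median difference of -0.05 and 51 below 0, against 49.7% of all genes. By role, 10 of 12 licensing and firing genes, 5 of 8 fork genes and 11 of 13 polymerase genes were below 0. So were 21 of 27 G1/S genes, but only 4 of 8 nucleotide supply genes, whose median was 0.006. Limma called 0 of the 68 genes with 6 libraries, edgeR 0 and DESeq2 2, Mtbp and Pold3, both lower. The shares of all genes called lower were 0% by limma and by edgeR and 1.37% by DESeq2. At an unadjusted p under 0.05 there were 9 lower and 3 higher, against 6.33% and 6.81% of all genes. The lowest p values belonged to Mtbp, a partner of the origin firing factor Ticrr (-0.40 ± 0.08), Pold3, a subunit of polymerase delta (-0.20 ± 0.05), Samhd1, which degrades deoxyribonucleotides (0.24 ± 0.06), Cdkn1a, Chaf1b, a subunit of the chromatin assembly factor (-0.20 ± 0.06), and Dbf4, the activator of the Cdc7 kinase (-0.14 ± 0.05). Cdkn1a, the cyclin-dependent kinase inhibitor p21, was at 11034, 6078 and 5182 normalised reads in controls and at 3769, 3335 and 3917 with FL-ApoE4. Every FL-ApoE4 library was below every control, with a difference of -0.94 ± 0.25 (limma adjusted p = 0.205). Without control replicate 1, which was the highest here, Cdkn1a fell by 0.61 (adjusted p = 0.00655). In that fit 6 of the 68 genes passed, all lower, against 1.69% of all genes: Mtbp, Pold3, Cdkn1a, Chaf1b and, named after their values were seen, Clspn and Chaf1a.

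Genes of G2/M and mitosis had a median difference of -0.13 over 25 genes, with 23 below 0, against 49.7% of all genes. Groups did not overlap for 12 of them, all lower, against 10.9% of all genes. Cyclin B1, encoded by Ccnb1, which drives entry into mitosis, was at -0.22 ± 0.05 and the phosphatase gene Cdc25c at -0.26 ± 0.06. Limma called 0 of the 25 with 6 libraries, with 9 lower at an unadjusted p under 0.05 (6.33% of all genes). EdgeR called 0 and DESeq2 2, Ccnb1 and Tpx2, both lower. Of all genes, 0% were called lower by limma and by edgeR and 1.37% by DESeq2. Without control replicate 1, groups did not overlap for 17 of the 25 genes on the lower side, against 19.7% of all genes. Limma then called Kif11 lower (adjusted p = 0.0404), a gene named after its values were seen, against 1.69% of all genes. Whether the G2/M and replication genes differ from each other was not tested. Within the replication genes, those with and without an E2F form in the promoter window had like medians, of -0.09 over 13 genes and -0.09 over 19 genes.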

How the data were processed

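Total RNA of 6 BV2 samples was sequenced from libraries of a directional kit, per the labels' protocols. The submitters' processing notes name HISAT2 (2.2.1), HTSeq, FastQC (0.11.8), DESeq2 (1.30.1) and build GRCm39, without roles. Whether counting used strand is not stated, which leaves genes that overlap or run antisense uncertain. The deposited signal is reads per gene divided by a factor per library: every value was a whole multiple of its column's smallest value (tolerance 0.01, 100% of values), and whole reads were recovered by division. The authors' deposited table of mean signal, log2 fold change, its score and p-value was used only where it is named.

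Values were put on the scale log2(value + 1) and tested two-sided with the trend option of limma (3.58.1, in R 4.3.3), for 14079 genes with a mean of at least 10, with Benjamini-Hochberg adjustment over all of them and a threshold of 0.05. Fold changes on that scale understate changes of low genes. Alternatives were edgeR 4.0.16 and DESeq2 1.42.0 on recovered reads, other pseudocounts, filters, scalings and variance models, a replicate block, removal of length and GC trends (GENCODE M21 principal transcripts, known for 93.2% of genes) and each library left out; combinations without control replicate 1 were chosen after seeing the data. The scripts were tested on simulated data. The genes, their roles, the further lists and the rule for naming genes (the lowest p in each role, 12 genes whatever their p, and the 6 further pathway genes and 2 mitotic genes of lowest p) were chosen with earlier results of these data known.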

Additional observations from a re-analysis of the deposited data

How the results depend on the processing

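Of the 40 measured genes, 30 were below 0 in the main analysis and in all 25 alternatives, Ccnd1 was above 0 in all of them and 9 changed sign. The median over the 40 genes stayed between -0.15 and -0.06, and moved by more than the spread of the library medians (SD 0.0501) only without control replicate 1 with length and GC trends removed (-0.14, with 15 genes called lower, 1 higher and 1256 over all genes) and without replicate 1 of both groups (-0.15, with 26, 1 and 1767). Array quality weights called 15 genes lower and 1 higher (1551 over all genes), DESeq2 1 and 1 (390), and without control replicate 1 edgeR called 3 and 1 (691) and DESeq2 7 and 1 (959). Over the 6 fits that leave out 1 library, 0 to 3 genes were called lower, 0 to 1 higher and 0 to 651 over all genes, and the maximum in each was without control replicate 1. With no filter beyond a mean above 0, 1 gene was called over all genes. The cause of these shifts was not tested. Deviations of same-numbered samples from their group means had correlations of 0.13, 0.07 and -0.03 for replicates 1 to 3. Pairs with unlike numbers ran from -0.16 to 0.16. With 3 libraries a group, these values cannot show whether the numbers pair the samples. A replicate block called 0 of the 40 genes and 0 over all genes, with a median of -0.08.

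Signs turned in genes whose difference was near 0. Over the fits that leave out 1 library, values ran from -0.11 to 0.047 for Orc1, -0.052 to 0.12 for Cdc6, -0.14 to 0.016 for Cdt1, -0.12 to 0.097 for Gmnn, -0.11 to 0.054 for Pold1, -0.14 to 0.064 for Tk1, -0.090 to 0.024 for Ccne1 and -0.080 to 0.14 for E2f2. Without control replicate 1 the values were -0.052 for Cdc6, -0.12 for Gmnn and -0.080 for E2f2; by edgeR without it they were -0.048, -0.12 and -0.077, by DESeq2 without it -0.055, -0.12 and -0.083, without it and with trends removed -0.068, -0.16 and -0.056, and without replicate 1 of both groups -0.065, -0.18 and -0.067. E2f1 gave -0.024 and -0.020 in the latter 2 settings. Array quality weights gave -0.035 for Cdc6, -0.14 for Gmnn and -0.050 for E2f2. Gmnn was at -0.0038 with length and GC trends removed and -0.044 without FL-ApoE4 replicate 1, where Orc1 was at 0.047 and Pold1 at 0.0071. Without control replicate 2, Orc1 was at 0.025, Pold1 at 0.017 and Tk1 at 0.064. Without control replicate 3, Orc1 was at 0.038, Cdt1 at 0.016, Pold1 at 0.054, Tk1 at 0.042 and Ccne1 at 0.024, and Ccne1 was at 8.2e-05 without FL-ApoE4 replicate 2. Pold1 and Tk1 were at 0.012 and 0.0057 with quantile normalization and at 0.0024 and 0.0023 with equal totals. The cause of these reversals was not tested. Counting error was not separated from the spread between libraries, and with 3 libraries a group the precision is limited.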
